A study of Homo sapiens with 8 samples.

Results

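The miR-29 family was followed in small RNA libraries of HEK293, a long-established line of human embryonic kidney cells. Its members were taken by name as the entries for miR-29a, miR-29b or miR-29c on either arm, which gave 4 of the 2867 entries in the deposited table. Of these, 3 were 3p arms (miR-29a-3p, miR-29b-1-3p and miR-29b-2-3p) and 1 was a 5p arm (miR-29c-5p). The 4 ASO libraries came from cells transfected with 100 nM ASO, an antisense oligonucleotide made to pair with a chosen RNA, here named for miR-31 in the library names. The 4 control libraries came from cells given no ASO, and all cells were harvested after 48 h. The series set out to ask whether the ASO had effects beyond its target. No group received an unrelated ASO and the labels do not say whether control cells were mock-transfected, so an effect of this ASO and an effect of transfection cannot be told apart.

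MicroRNAs are cut from hairpin precursors, and the strand loaded into Argonaute finds its targets mainly through the seed, bases 2 to 8 from its 5′ end. The 3p strands of miR-29 are the guide strands of the family. They are known for repressing collagens and other matrix genes, the DNA methyltransferases DNMT3A and DNMT3B, and the survival factor MCL1. MYC and NF-kB are known to lower miR-29 transcription. The family is made from a pair of gene clusters, so that miR-29b-3p is produced from both.

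The mature 3p strands are shown because their shared seed, in capitals, defines the family and because they differ by few bases. The sequences are those of RefSeq on GRCh38.p14, written 5′ to 3′, to which all 4 entries could be matched by name.
miR-29a-3p: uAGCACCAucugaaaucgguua
miR-29b-3p: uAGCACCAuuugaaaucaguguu
miR-29c-3p: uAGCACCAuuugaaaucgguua
Of 2370 mature human microRNA names in the RefSeq table, these 3 alone carried the seed AGCACCA. Counted from the 5′ end of miR-29a-3p, miR-29c-3p differed from it by the single substitution C10U. miR-29b-3p differed from miR-29a-3p by C10U, G18A, U21G and A22U, and had 1 more base at its 3′ end. Its last bases, AGUGUU, are known as an element that directs miR-29b to the nucleus. These letters stood at the 3′ end of 2 mature names in RefSeq (0.0844%) and anywhere in 13 (0.549%). The deposited table listed no entry for miR-29c-3p. The C10U difference lies in the middle of the molecule, so reads of miR-29a-3p and miR-29c-3p can be separated only where that base is read and matched exactly, and how the counting treated mismatches is not given in the sources used here.

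The 5p entry is a different sequence. It is shown with its own seed in capitals, since it shares none with the 3p strands.
miR-29c-5p: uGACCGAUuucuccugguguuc
No other mature name in the RefSeq table had the seed GACCGAU. Because the 5p strand would not be directed to the targets of the 3p strands by its seed, it is described apart from them.

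The hairpins of miR-29b-1 and miR-29b-2 are shown with both mature arms in capitals, because their 3p arms are letter for letter the same while the loops and flanks differ.
MIR29B1: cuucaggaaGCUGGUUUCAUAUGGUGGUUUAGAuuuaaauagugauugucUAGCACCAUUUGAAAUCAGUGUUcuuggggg
MIR29B2: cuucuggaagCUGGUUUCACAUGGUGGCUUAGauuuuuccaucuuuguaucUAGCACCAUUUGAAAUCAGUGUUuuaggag
A read that ends where the 23-base mature strand ends therefore cannot be assigned to either gene. The first base past it is C in MIR29B1 and U in MIR29B2. The deposited length was 23 for miR-29b-1-3p and 24 for miR-29b-2-3p, 1 base longer than the mature strand. For miR-29a-3p it was 22, as in RefSeq, and for miR-29c-5p it was 23, again 1 base longer. Among the 810 known entries that could be matched to a RefSeq mature name, 385 (47.5%) had the mature length and 194 (24.0%) were 1 base longer.

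MIR29B1 (chr7:130877459-130877539) and MIR29A (chr7:130876747-130876810) lie on the minus strand of chromosome 7 with 648 bases between them, in GRCh38. In the GENCODE release 29 annotation both fall in an intron of the noncoding RNA gene AC016831.6. MIR29B1 also overlaps an exon of LINC-PINT, a p53-induced noncoding RNA on the same strand whose annotated end just reaches MIR29A, and both lie opposite an intron of LINC00513. MIR29B2 (chr1:207802443-207802523) and MIR29C (chr1:207801852-207801939) lie on the minus strand of chromosome 1 with 503 bases between them, in an exon of their host gene MIR29B2CHG.

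Total counts were 10082129 to 11677123 in ASO libraries and 8168828 to 11228954 in control libraries, so 1 count was worth 0.0856 to 0.122 CPM, which scales a count to its library's total. Levels below are CPM after TMM scaling, which corrects for differences in library composition. They were scaled to the total of the entries kept for testing, whereas intervals and limits of counting error use the library's whole total. Each level is that of 1 entry, not divided by length since a read spans the whole microRNA. Adapter ligation and amplification take up some sequences better than others, so levels compare an entry between libraries better than they compare different entries. The target entry, miR-31-5p, was not lower with ASO (mean 837 ± 166 CPM with ASO, against 736 ± 305 CPM in controls, SD, n = 4 each), so it gave no check of the labels. No microRNA defines HEK293 cells by itself, and 19 markers of blood, mesenchyme, endothelium, liver, muscle, neurons and squamous epithelium were examined in its place. Of the 15 listed, 8 were below 10 CPM in every library and 0 were at 0 throughout. Their summed level was 4212 to 4660 CPM in ASO libraries and 4507 to 4971 CPM in control libraries. Most of it was the neural miR-9-5p (3339 ± 175 CPM with ASO, against 3585 ± 157 CPM in controls). Next among the tested markers was the endothelial miR-126-3p (862 ± 32.2 CPM with ASO, against 874 ± 52.5 CPM in controls). The liver marker miR-122-5p had the smallest p of the marker list (29.7 ± 7.34 CPM with ASO, against 12.1 ± 2.02 CPM in controls, edgeR adjusted p = 0.0516). The part of these markers in the miR-29 values was not tested.

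miR-29a-3p carried most of the counts of the 4 listed entries. Its level was 350, 342, 338 and 302 CPM in ASO libraries 1 to 4, from 3408, 4050, 3762 and 3113 counts. In control libraries 1 to 4 its level was 226, 281, 276 and 302 CPM, from 2273, 2629, 2293 and 3425 counts. All 4 ASO libraries lay above all 4 controls, but the gap between the lowest ASO library, number 4, and the highest control, also number 4, was 0.138 CPM. The Wilson 95% intervals of these libraries, before TMM scaling, were 298 to 320 CPM in ASO library 4 and 295 to 315 CPM in control library 4, so the gap was well inside the counting error. Control library 1 was the lowest of the 8.

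The mean level of miR-29a-3p was 333 ± 21.0 CPM in ASO libraries and 271 ± 32.5 CPM in control libraries (SD, n = 4 each). edgeR's quasi-likelihood test gave a log2 fold change of 0.30 (SE 0.10, 95% interval 0.06 to 0.53), which is 1.23-fold (1.04 to 1.44). The unadjusted p was 0.0196 and the p adjusted over all 745 tested entries was 0.405, so miR-29a-3p did not pass the threshold of 0.05. In the same fit 1 entry passed in either direction (0.134%) and 0 were called higher (0%), while 78 (10.5%) had an unadjusted p under 0.05. Higher non-overlapping levels, as for miR-29a-3p, were found in 23 entries (3.09%), and 35 entries had a smaller p than miR-29a-3p. DESeq2, an alternative test on the same counts, called miR-29a-3p higher (log2 fold change 0.29, SE 0.09, adjusted p = 0.0379). Among the 422 entries for which it gave an adjusted p, it called 23 in either direction (5.45%), of which 9 were higher (2.13%). Over all alternatives the adjusted p of miR-29a-3p ran from 0.0379 to 0.705, and its log2 fold change was 0.23 without control library 1. Nothing in the labels states that each library had a culture of its own, so these p-values measure only the spread between libraries, which may be technical.

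**Figure D1:**
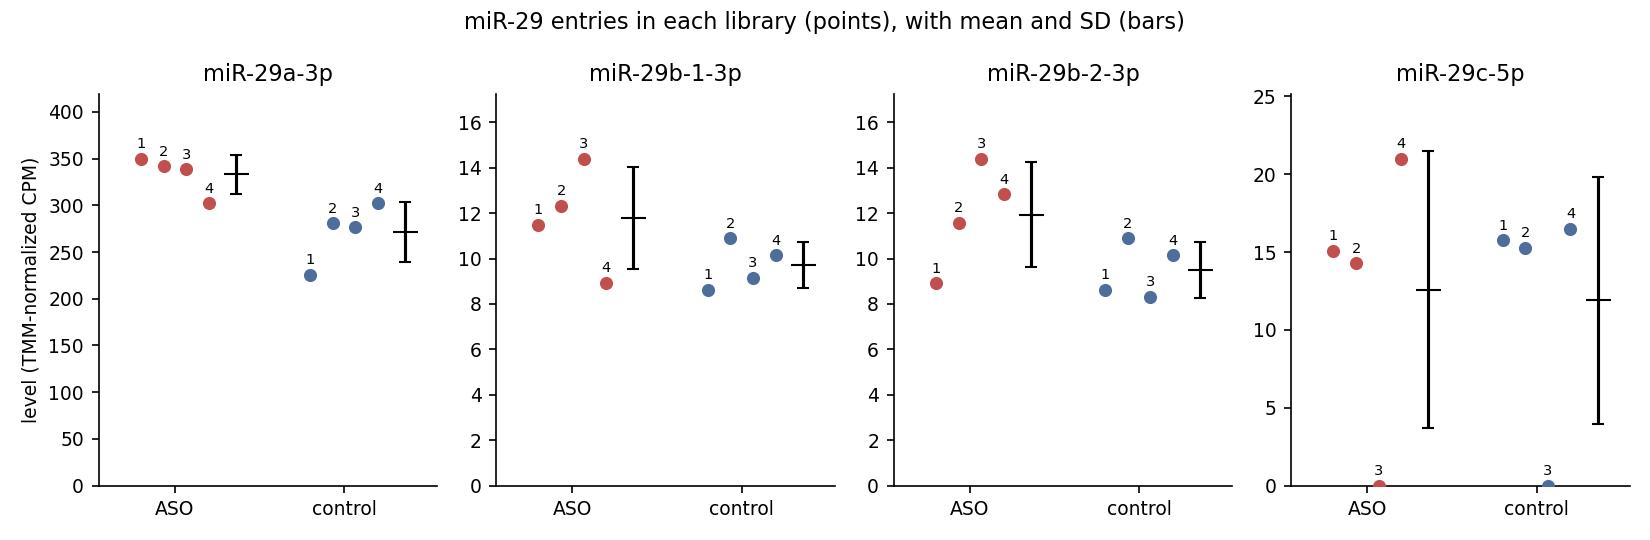
Level of each miR-29 entry in TMM-normalized CPM on linear axes that start at 0, 1 point per library numbered 1 to 4, with the group mean and SD as a bar beside the points. ASO libraries of miR-29a-3p sit at 302 to 350 CPM and control libraries at 226 to 302 CPM, while miR-29c-5p is at 0 in library 3 of both groups.

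The miR-29b entries were far lower than miR-29a-3p. The miR-29b-1-3p entry stood at 11.5, 12.3, 14.4 and 8.94 CPM in ASO libraries 1 to 4, from 112, 146, 160 and 92 counts. Controls 1 to 4 had 8.63, 10.9, 9.16 and 10.2 CPM of it, from 87, 102, 76 and 115 counts. ASO library 3 was the highest of the 8 and the groups overlapped, since ASO library 4 lay below 3 of the controls. The mean was 11.8 ± 2.26 CPM in ASO libraries and 9.71 ± 1.01 CPM in control libraries (SD, n = 4 each), with a log2 fold change of 0.28 (SE 0.17, 95% interval −0.11 to 0.67, edgeR adjusted p = 0.515).

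The miR-29b-2-3p entry stood at 8.93, 11.6, 14.4 and 12.8 CPM in ASO libraries 1 to 4, from 87, 137, 160 and 132 counts. Controls 1 to 4 had 8.63, 10.9, 8.32 and 10.2 CPM of it, from 87, 102, 69 and 115 counts. ASO library 3 was again the highest, and ASO library 1 lay among the controls. The mean was 11.9 ± 2.31 CPM in ASO libraries and 9.50 ± 1.23 CPM in control libraries (SD, n = 4 each), with a log2 fold change of 0.33 (SE 0.18, 95% interval −0.08 to 0.74, edgeR adjusted p = 0.467). Counting error was wide at this depth. For the 87 counts of miR-29b-2-3p in ASO library 1 the Wilson 95% interval, before TMM scaling, was 6.96 to 10.6 CPM. For its 69 counts in control library 3 the interval was 6.68 to 10.7 CPM. Without library 3 of both groups, chosen after seeing the data, the log2 fold change was 0.13 for miR-29b-1-3p and 0.15 for miR-29b-2-3p. Without ASO library 3 alone it was 0.17 for miR-29b-1-3p and 0.23 for miR-29b-2-3p.

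**Figure D2:**
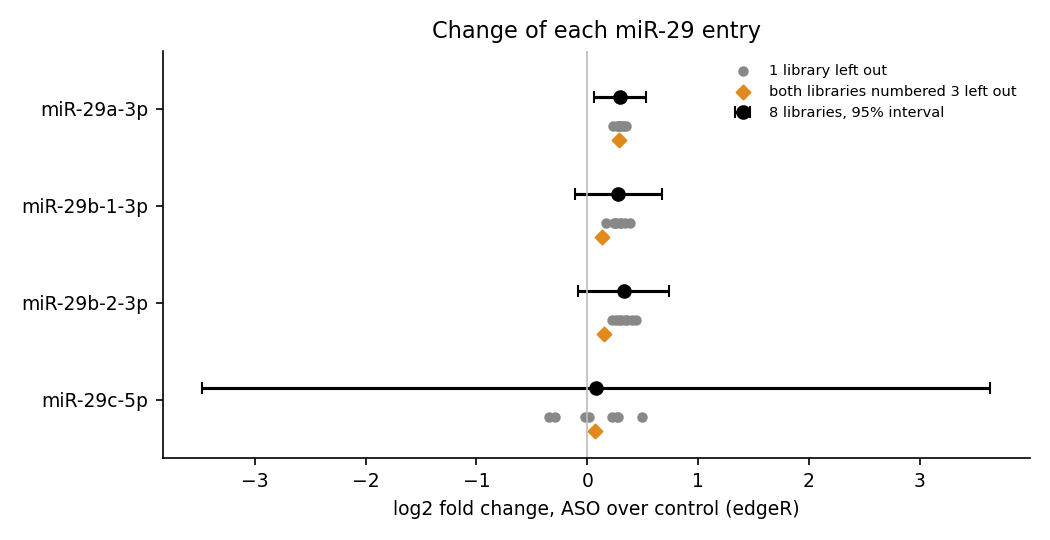
Log2 fold change of each miR-29 entry, ASO over control, from edgeR with its 95% interval (black), on leaving out each library in turn (grey) and on leaving out library 3 of both groups (orange diamonds). The 3p entries lie between 0.28 and 0.33 with all libraries, and the interval of miR-29c-5p spans −3.48 to 3.64.

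The miR-29b entries share 1 mature sequence and cannot be taken as separate measurements. They held equal counts in 4 of the 8 libraries, namely ASO library 3 (160 counts each) and control libraries 1, 2 and 4 (87, 102 and 115 counts each). In ASO libraries 1 and 2 the miR-29b-1-3p entry was higher by 25 and 9 counts, and in control library 3 by 7 counts. ASO library 4 went the other way, with 92 counts for miR-29b-1-3p and 132 for miR-29b-2-3p. Of 10 pairs of known entries whose names differ only in a copy number, and which were above 0 in all libraries and averaged at least 10 counts, 2 had equal counts in all 8 libraries (miR-24-3p with miR-24-2-3p, and miR-92a-3p with miR-92a-2-3p). The miR-29b pair was equal in 4 libraries and the other 7 pairs in 0. The table thus lists 1 set of counts under 2 names elsewhere. Equality in some libraries and not in others was found only for miR-29b among these 10 pairs. Whether the same reads stand under both miR-29b names in the 4 equal libraries was not tested. The changes of the entries were therefore read as 1 result for miR-29b-3p, and no split between the chromosome 7 and chromosome 1 genes was drawn from them.

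**Figure D3:**
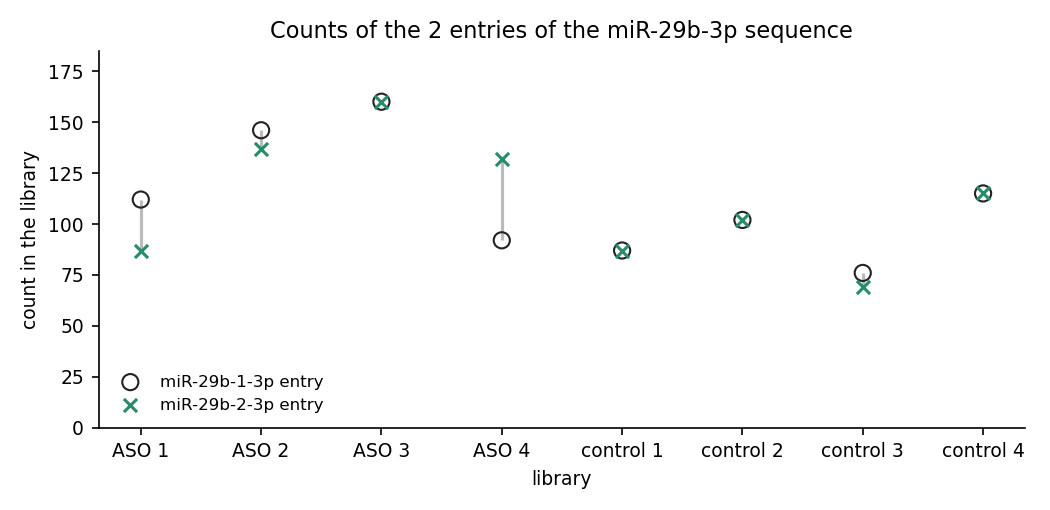
Raw counts of the miR-29b-1-3p entry (circles) and the miR-29b-2-3p entry (crosses) in each library, on an axis that starts at 0. The symbols coincide in ASO library 3 and control libraries 1, 2 and 4 and are farthest apart in ASO library 4, at 92 and 132 counts.

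The balance among 3p members differed between groups by less than the spread between libraries. The 3p counts were summed over the 3 listed entries, with none for miR-29c-3p. miR-29a-3p took 93.3% ± 0.951 of the summed 3p counts with ASO and 93.4% ± 0.615 in controls (SD, n = 4 each). Its share ran from 92.2% (Wilson 95% interval 91.3 to 92.9) in ASO library 3 to 94.5% (93.7 to 95.2) in ASO library 1, and from 92.8% to 94.1% across controls. With miR-29b-3p counted as the mean of its entries, since they share a sequence, the share was 96.6% ± 0.509 with ASO and 96.6% ± 0.329 in controls. The 3 entries together made up 0.0356% ± 0.00179 of a library with ASO and 0.0288% ± 0.00390 in controls. Reads of miR-29b-3p may stand under both names in this sum, which was not tested.

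Ratios within a library do not depend on scaling between libraries. The count of miR-29a-3p was 30.3, 27.6, 23.4 and 33.7 times that of the miR-29b-1-3p entry in ASO libraries 1 to 4. In control libraries 1 to 4 this ratio was 26.0, 25.7, 30.0 and 29.7. The groups overlapped, and the mean log2 ratio was 4.83 ± 0.22 with ASO and 4.79 ± 0.12 in controls, which differ by 0.04 (exact two-sided permutation test, p = 0.743). Against the miR-29b-2-3p entry the mean log2 ratio was 4.82 ± 0.35 with ASO and 4.83 ± 0.17 in controls, which differ by −0.01, ASO minus control (exact permutation p = 0.971). Both p-values were 0.971 after adjustment over the 2 ratios, and 0.0286 is the smallest p that 4 against 4 libraries allow. The ratio is one of counts and not of molecules, given the ligation preferences of the method. A 5p to 3p ratio could not be computed for any hairpin, since no hairpin of the family had both arms among the entries.

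miR-29c-5p showed an on or off pattern that was not tied to the groups. Its level was 15.1, 14.3, 0 and 21.0 CPM in ASO libraries 1 to 4, from 147, 169, 0 and 216 counts. In control libraries 1 to 4 its level was 15.8, 15.3, 0 and 16.5 CPM, from 159, 143, 0 and 187 counts. Library 3 was at 0 in each group. If reads of the entry were counted there, 3 counts set limits of 0.269 CPM in the ASO library and 0.367 CPM in the control. If the entry was left out of the counting in those libraries, which was not tested, these are no limits on its level. In the remaining 6 libraries the groups overlapped, at 16.8 ± 3.66 CPM with ASO and 15.9 ± 0.611 CPM in controls (SD, n = 3 each).

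With all libraries the log2 fold change of miR-29c-5p was 0.08 with an interval of −3.48 to 3.64 (edgeR adjusted p = 0.981), which is wide enough to hold large changes in either direction. Its direction turned on leaving out ASO library 1 (−0.02), ASO library 4 (−0.30) or control library 3 (−0.35), and was 0.49 without ASO library 3. Without library 3 of both groups, chosen after seeing the data, it was 0.07 (SE 0.18, adjusted p = 0.943). Such gaps were not particular to this entry. Of the 745 tested entries, 47 (6.31%) were at 0 in some library and at least 100 counts in another, and 3 of these were at 0 in exactly ASO library 3 and control library 3. These were miR-29c-5p, a predicted microRNA, and miR-941, which was named after its values were seen and held 22311, 24091 and 24748 counts in ASO libraries 1, 2 and 4, against 43250, 28953 and 25642 in control libraries 1, 2 and 4. Among entries at 0 in exactly 2 libraries and at least 100 counts in another, every other pair of libraries shared 0 or 1. Each library had 12 to 16 entries at 0 that reached at least 100 counts elsewhere.

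Ordered by mean level over the 8 libraries, miR-29a-3p (302 CPM) ranked 123 of the 539 tested known microRNAs. miR-29c-5p (12.2 CPM) ranked 302, miR-29b-1-3p (10.8 CPM) 308 and miR-29b-2-3p (10.7 CPM) 309. The mean and rank of miR-29c-5p include its 0 counts in library 3 of both groups, which lower them. The lowest library of miR-29a-3p, at 226 CPM, lay above the highest library of any other member, at 21.0 CPM. In the 6 libraries where it was above 0, miR-29c-5p (14.3 to 21.0 CPM) lay above both miR-29b entries (8.32 to 14.4 CPM over all 8) of the same library. The miR-29b entries overlapped, and their order does not differ beyond the spread between libraries.

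The entries whose pattern over the 8 libraries was nearest to that of miR-29a-3p were sought among 316 known microRNAs averaging at least 100 counts. Likeness was the root-mean-square difference between log2(CPM + 0.5) levels, each centred on its own mean. The nearest was miR-181a-5p (0.035), followed by let-7b-5p (0.066), miR-181b-5p (0.069) and miR-181d-5p (0.075), where the median over the candidates was 0.234. miR-181a-5p stood at 4005, 3966, 3899 and 3479 CPM in ASO libraries 1 to 4 and at 2748, 3224, 3357 and 3487 CPM in control libraries 1 to 4. Like miR-29a-3p, all 4 were lowest in control library 1. They were chosen for likeness over these same libraries, so this and the direction of their changes are no separate result. Their log2 fold changes were 0.26 for miR-181a-5p, 0.19 for let-7b-5p, 0.30 for miR-181b-5p and 0.17 for miR-181d-5p, and none passed the threshold (edgeR adjusted p of 0.402 to 0.464). The family's own miR-29b-1-3p entry was farther away, at 0.151 with 61 candidates nearer, and miR-29b-2-3p was at 0.230 with 151 nearer. The entries share the same 8 libraries and scaling, and the low counts of miR-29b bring a wider counting error than those of miR-29a-3p.

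**Figure D4:**
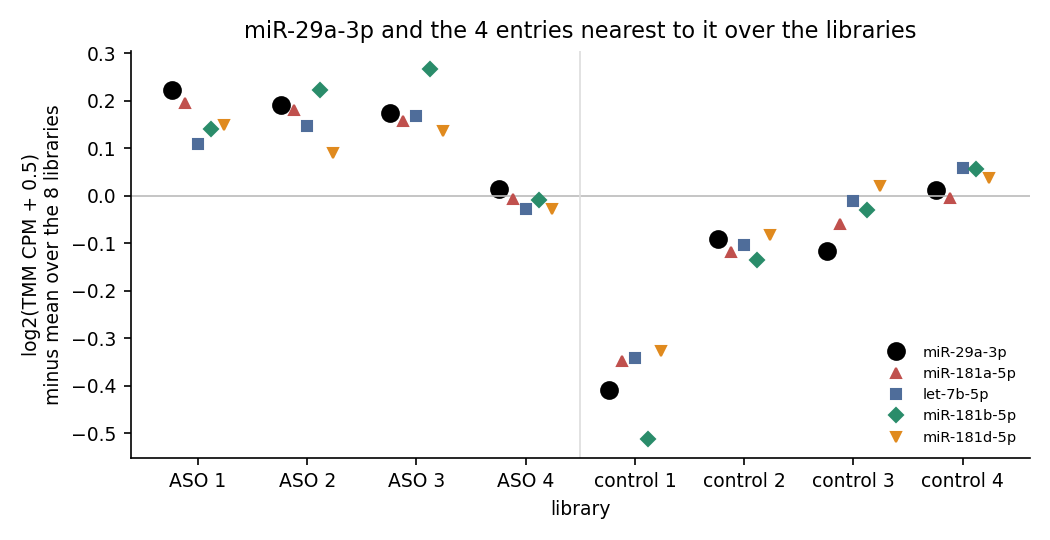
Log2(TMM CPM + 0.5) of miR-29a-3p and its 4 nearest entries in each library, each centred on its mean over the 8 libraries, which is drawn as the line at 0. All 5 are lowest in control library 1 and above their means in ASO libraries 1 to 3, and the 4 were chosen for this likeness.

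Other microRNAs known to act on the same processes as miR-29 were set beside the family. Of 15 microRNAs known to target chromatin or DNA methylation enzymes, 12 were tested and 0 passed the threshold in either direction. Over all 745 tested entries 1 passed (0.134%), so 0 calls say little of the list. In this list 8 had a fold above 1 and the median log2 fold change was 0.09, where 385 of all 745 tested entries (51.7%) had a fold above 1 and the median was 0.01. miR-26a-5p, which targets the histone methyltransferase EZH2, was the most abundant (43754 ± 1685 CPM in ASO libraries and 40538 ± 1295 CPM in control libraries, log2 fold change 0.11, edgeR adjusted p = 0.445). miR-101-3p, which also targets EZH2, had the smallest p (805 ± 39.7 CPM in ASO libraries and 966 ± 91.4 CPM in control libraries, log2 fold change −0.26, edgeR adjusted p = 0.402).

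Of 19 microRNAs known to act on matrix genes or fibrosis, 14 were tested and 0 passed the threshold in either direction. Again this is set against 1 of all 745 tested entries (0.134%) and says little of the list. In this list 8 had a fold above 1 and the median log2 fold change was 0.13. Over all 745 tested entries 385 (51.7%) had a fold above 1 and the median was 0.01. miR-21-5p, which promotes fibrosis and was the most abundant, stood at 71616 ± 4918 CPM in ASO libraries and 77127 ± 7859 CPM in control libraries (log2 fold change −0.11, edgeR adjusted p = 0.627). miR-30c-5p, which targets the matrix growth factor CTGF, had the smallest p (12229 ± 1306 CPM in ASO libraries and 9087 ± 2120 CPM in control libraries, log2 fold change 0.43, edgeR adjusted p = 0.445).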

How the data were processed

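Small RNA was sequenced from 4 ASO and 4 control libraries of HEK293 cells. Per the labels' protocols, total RNA came from a miRNeasy extraction (Qiagen) and the libraries from a small RNA kit of NEB. bcl2fastq 2.20, Trimmomatic 0.30, edgeR 3.4.6 and GRCh38 are named in the submitters' processing notes. How reads were aligned, counted and annotated is not given in the sources used here.

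The authors deposited raw counts per entry. The columns headed TPM in the deposited table were CPM on testing (largest gap to a CPM computed here, 0.223), and were not used further.

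The tested entries were above 0 in at least 4 of 8 libraries and averaged at least 10 counts (539 known and 206 predicted), with TMM scaling (factors 0.964 to 1.02) and the quasi-likelihood test of edgeR 4.0.16, Benjamini-Hochberg adjustment over all 745 and a threshold of 0.05. Standard errors were taken as |log2 fold change| over √F. The test was tried on simulated counts. Every changed entry there had a larger change than miR-29a-3p, so the trial does not show how often so small a change is called. DESeq2 1.42.0 was an alternative, beside median-ratio scaling, other filters, a replicate block and leaving out libraries. Ratios used a pseudocount of 0.5 counts and exact permutation (70 arrangements). Wilson intervals and limits of 3 counts describe counting error alone, as PCR duplicates are no independent molecules. No replicate pair looked like a repeat deposit (chi-square over its degrees of freedom, 135 to 801). The labels do not say that a shared number pairs libraries. Every miR-29 entry is named, with the 4 nearest to miR-29a-3p and, per list, the most abundant member and that with the smallest p. The marker miR-126-3p was named after its values were seen. The members and lists were chosen with earlier results of these data known.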

Additional observations from a re-analysis of the deposited data

Results flagged for a closer look

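The level of miR-29c-5p in the control libraries was flagged because control library 3, at 0, stood far from the other 3 controls, which lay at 15.3 to 16.5 CPM. Its gap to the nearest control was 0.926 of the whole range of the group, above Dixon's 95% critical value for 4 samples. Chance flags about 1 in 20 groups. The ASO libraries of the same entry had a 0 in library 3 too, but were not flagged, since ASO library 4 at 21.0 CPM widened their range. The cause of the 0 counts was not tested.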

How the results depend on the processing

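The 3p entries kept a fold above 1 under all 15 alternatives each, with log2 fold changes of 0.23 to 0.35 for miR-29a-3p, 0.13 to 0.38 for miR-29b-1-3p and 0.15 to 0.44 for miR-29b-2-3p. The alternatives reuse the same libraries and the miR-29b entries share a sequence, so these are not independent checks. In the main fit 385 of 745 tested entries (51.7%) had a fold above 1. How many kept their direction under all alternatives was not counted. DESeq2 was the 1 alternative that called a member, miR-29a-3p (0.29, adjusted p = 0.0379). The cause was not tested. On leaving out 1 library the ranges were 0.23 to 0.35 for miR-29a-3p, 0.17 to 0.38 for miR-29b-1-3p, 0.23 to 0.44 for miR-29b-2-3p and −0.35 to 0.49 for miR-29c-5p. The difference in log2 ratio of miR-29a-3p over miR-29b-1-3p ran from −0.0404 to 0.134 on leaving out 1 library, and that over miR-29b-2-3p from −0.167 to 0.0774. Without library 3 of both groups, chosen after seeing the data, the difference in the ratio over miR-29b-1-3p was 0.171 (exact permutation p = 0.200), against 0.0393 with all libraries, and that over miR-29b-2-3p turned to 0.149 (exact permutation p = 0.700). With 3 libraries a group such a test cannot reach the threshold. Counting miR-29b-3p once, also chosen after seeing the data, moved the miR-29a-3p share to 96.6% with ASO and 96.6% in controls, by construction. On leaving out 1 library that share ran from 93.0% to 93.7% with ASO and from 93.1% to 93.5% in controls.

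The count of entries past the threshold, 1 of 745, was 0 of 2860 with no filter and 5 of 358 with a mean count of at least 100. It was 4 of 539 among known microRNAs and 23 of 422 with DESeq2. On leaving out 1 library it was 0 to 5 of 745 (0 without control library 2, 5 without control library 4, and 2 without ASO libraries 1 or 4 or controls 1 or 3, each left out alone). Deviations of same-numbered libraries 1 to 4 had correlations of 0.0073, 0.034, 0.297 and −0.039, so they were not taken as pairs. The exception was number 3 (0.297), where control library 3 was also the best match of ASO library 3. The same 2 libraries alone were at 0 in 3 entries with at least 100 counts in each of the others. All tested entries went into the correlations, so these shared 0 counts are part of the 0.297 and no separate sign. The best matches of ASO libraries 1, 2 and 4 were control libraries 2, 4 and 1. With a replicate block on the library number the count of calls was 0, with 65 entries at an unadjusted p under 0.05, and the log2 fold changes were 0.30 for miR-29a-3p, 0.26 for miR-29b-1-3p, 0.31 for miR-29b-2-3p and 0.06 for miR-29c-5p. At 69 to 160 counts a library, depth limits what can be said of miR-29b-3p.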
